A study of Mus musculus with 8 samples.

Results

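The proteasome is the large protease that degrades ubiquitin-tagged proteins. Its 20S core is a barrel of alpha rings, which gate the entrance, and beta rings, which hold the proteolytic sites; 19S regulatory caps bind ubiquitin chains, unfold substrates with a ring of ATPases and remove ubiquitin with a lid. Other activators open the core without ATP, and dedicated chaperones assemble it. Cells usually make the subunits in balanced amounts, and in mammals the factors NFE2L1 and NFE2L2 are known to raise transcription of subunit genes under proteotoxic or oxidative stress.

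The 47 genes described here were the protein-coding rows of the gene table whose symbol began with Psma, Psmb, Psmc, Psmd, Psme, Psmf or Psmg followed by a digit, leaving out the immunoproteasome genes Psmb8, Psmb9 and Psmb10. They were 47 of the 54532 genes in the table, and 45 of them had enough counts to be tested. The symbol rule also took Psmc3ip, which encodes a meiotic recombination factor and no proteasome subunit, and Psme2b, a copy of the activator gene Psme2.

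RNA was sequenced from MA-10 cells, a mouse Leydig tumour cell line that makes progesterone, comparing MTP KO cells (n = 4 libraries) with WT MA-10 cells (n = 4 libraries). MTP, the product of Mttp, transfers lipids onto lipoproteins. The KO was made with a pair of guide RNAs and Cas9 followed by single-cell cloning, and the sources name several clones without saying which gave the RNA, so a property of a clone and an effect of the KO cannot be told apart. Both groups were cultured for 48 h and received 0.5 mM 8-BrcAMP, a cell-permeable cAMP analog, for 3 h, so every value below is from stimulated cells. Libraries within each group are described as biological replicates, with no account of how their cultures were kept apart, so p-values measure only the spread between these libraries. Levels are given as CPM, the counts of a gene scaled to a common library size with TMM factors, and fold changes as log2 of KO over WT.

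Total counts were 14927989 to 18394797 in KO and 15075610 to 16321292 in WT libraries. Mttp itself had 5.09, 4.52, 6.75 and 7.13 CPM in KO, against 12.9, 11.9, 13.3 and 14.4 CPM in WT, and was lower in all 4 KO libraries. Of 9 Leydig cell markers all were tested, 6 higher and 0 lower in KO (0 also at an unadjusted p below 0.05, with DESeq2 and with limma). Over all tested genes, 21.7% were called higher in KO and 21.1% lower. The Leydig cell markers had summed levels of 9904 to 10895 CPM in KO and 9186 to 10206 CPM in WT. Some markers of other cell types also differed. The 5 macrophage markers summed to 12.3 to 15.7 CPM in KO and 20.5 to 26.5 CPM in WT. Of these, Csf1r and Cd68 were lower, Cd14 at 0.26 was not called, and Adgre1 and Ptprc were at 0 in every library. The 4 endothelial markers summed to 100.3 to 119.5 CPM in KO and 182 to 209.6 CPM in WT. Most of this was Cdh5, which averaged 108 CPM in KO and 199.6 CPM in WT. Kdr was not called, and Pecam1 and Tek had too few counts to be tested. The 5 Sertoli cell markers summed to 365 to 409 CPM in KO and 228 to 243 CPM in WT, mostly Rhox5. The 5 germ cell markers summed to at most 4.81 CPM. The 4 thymus and lymphoid markers summed to at most 0.327 CPM. The part of these markers in the results below was not tested.

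Proteasome genes varied together between libraries of a single group. WT replicate 1 had the lowest WT value for 37 of the 45 tested members (82.2%, against 30.4% of all tested genes), and WT replicate 4 had the highest for 31 of them (68.9%, against 29.6% of all tested genes). Among KO libraries, replicate 4 was lowest for 25 members (55.6%, against 24.2%). The median member lay 0.10 below the WT mean on the log2 scale in WT replicate 1 and 0.09 above it in WT replicate 4. The median of all tested genes lay within 0.01 of its group mean in every library, which the TMM scaling largely sets. The spread of the members is of the size of most differences between the groups. Counts of members are therefore given also without WT replicate 1, WT replicate 4 and KO replicate 4.

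**Figure D1:**
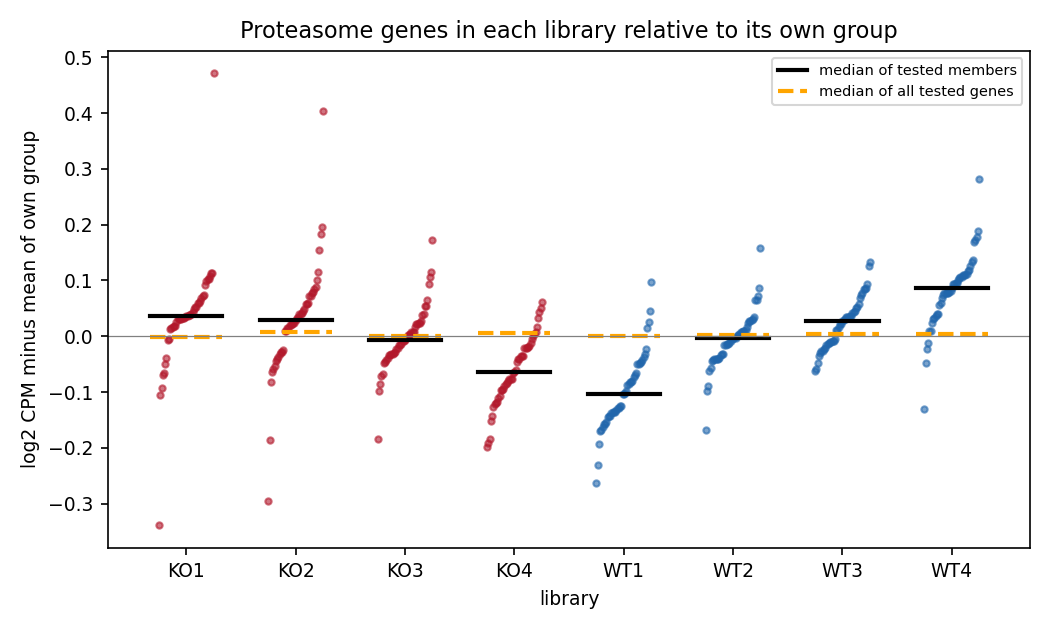
Log2 CPM of each of the 45 tested members minus the mean of its own group (y axis) in the 4 KO and 4 WT libraries (x axis), points sorted within a library; black lines are the medians of the members and dashed orange lines those of all tested genes. The member median falls 0.06 below the group mean in KO4 and 0.10 below it in WT1, and lies 0.09 above it in WT4.

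Most proteasome genes differed little between MTP KO and WT cells. Of the 45 tested members, 4 were higher in KO (Psmb7, Psmb5, Psme3 and Psme4), 7 were lower (Psmb4, Psma5, Psma7, Psma3, Psmb2, Psmd12 and Psmc5) and 34 did not pass an adjusted p of 0.05 in edgeR's quasi-likelihood test. The share called was 24.4% of the members, against 42.7% of the 13185 tested genes in either direction, 21.7% of which were higher and 21.1% of which were lower in KO. Among the 8202 genes at least as abundant as the lowest tested member, 49.9% were called, so the share was smaller among members than among genes of their abundance. Log2 fold changes of the members ranged from -0.41 to 0.27, with a median of -0.02 that stood beside -0.0019 for all tested genes. None of the 45 passed both the adjusted p and an absolute log2 fold change of 0.5, the limit used for this comparison in the study, which 15.8% of all tested genes passed in either direction, and these 45 members lay between -0.46 and 0.31 in all 18 alternative fits.

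The libraries of the groups did not overlap for 8 members. All 4 KO libraries lay above all 4 WT libraries for Psmb5, Psmb7, Psme3 and Psmd11, and 19.7% of all tested genes had this pattern. KO lay below WT for Psma5, Psma7, Psmb4 and Psmd2, a pattern held by 18.9% of all tested genes. Psmd2, a scaffold of the 19S base, had 593, 588, 567 and 572 CPM in KO, against 618, 606, 609 and 617 CPM in WT, and Psmd11, a lid subunit, averaged 78.6 ± 2.62 CPM in KO and 74.4 ± 1.63 CPM in WT (SD, n = 4 each). Neither passed the test (edgeR adjusted p = 0.127 for Psmd2 and 0.21 for Psmd11).

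**Figure D2:**
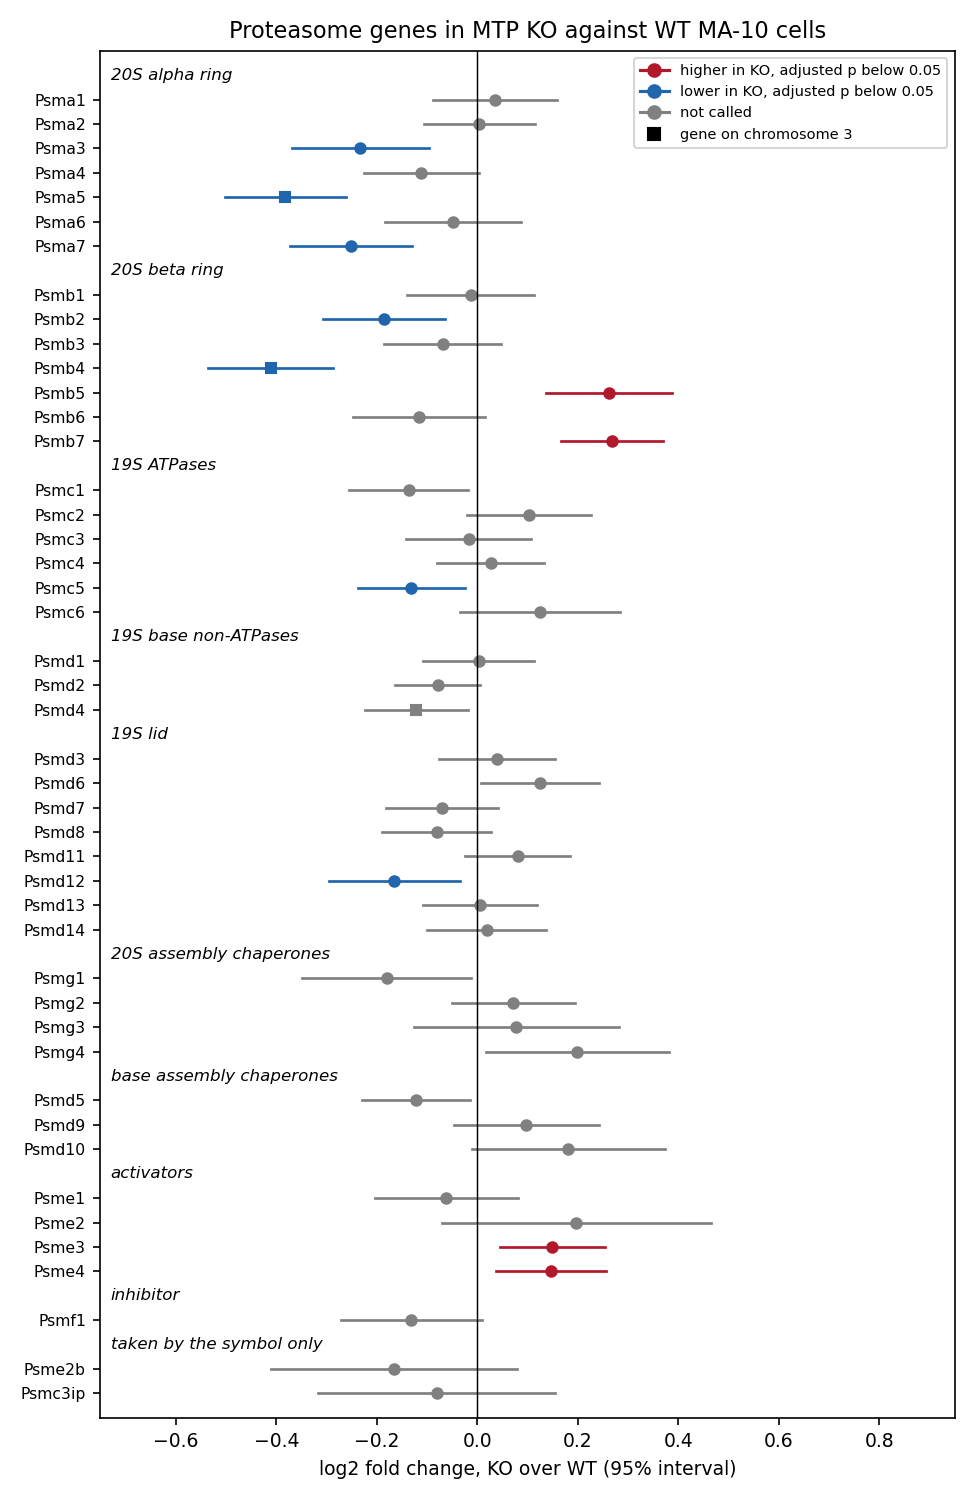
Log2 fold change of KO over WT (x axis) for the 45 tested members grouped by role (y axis), with 95% intervals from the edgeR fit; red marks the 4 genes called higher in KO, blue the 7 called lower, grey those not called, and squares the 3 genes on chromosome 3. All values lie between -0.41 and 0.27.

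The 3 subunits that carry the proteolytic sites of the core did not move together. Psmb7, which encodes the trypsin-like subunit (ENSMUSG00000026750, chr2:38588036-38644087, minus strand), had 1908, 1852, 1767 and 1781 CPM in KO, against 1431, 1499, 1501 and 1636 CPM in WT. Every KO library was above every WT library, and the log2 fold change was 0.27 (SE 0.0478, 95% interval 0.17 to 0.37, edgeR adjusted p = 0.000286). Psmb5, the chymotrypsin-like subunit and the main target of proteasome inhibitor drugs (ENSMUSG00000022193, chr14:54614119-54618022, minus strand), had 185, 183, 174 and 166 CPM in KO, against 132, 147, 156 and 155 CPM in WT. Its groups did not overlap either, with a log2 fold change of 0.26 (SE 0.0590, interval 0.14 to 0.39, edgeR adjusted p = 0.00192). The caspase-like subunit gene Psmb6 (ENSMUSG00000018286, chr11:70525367-70527858, plus strand) had 125, 126, 115 and 109 CPM in KO, against 117, 129, 131 and 139 CPM in WT. These ranges overlapped, and the difference of -0.12 (interval -0.25 to 0.01, edgeR adjusted p = 0.144) was not called. The calls on Psmb5 and Psmb7 were kept in all 18 alternative fits, among them each omission of a single library, with values of 0.18 to 0.30 for Psmb5 and 0.24 to 0.31 for Psmb7. Psmb6 was called lower in 1 of the 18, the fit without WT replicate 1, where it was -0.16.

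**Figure D3:**
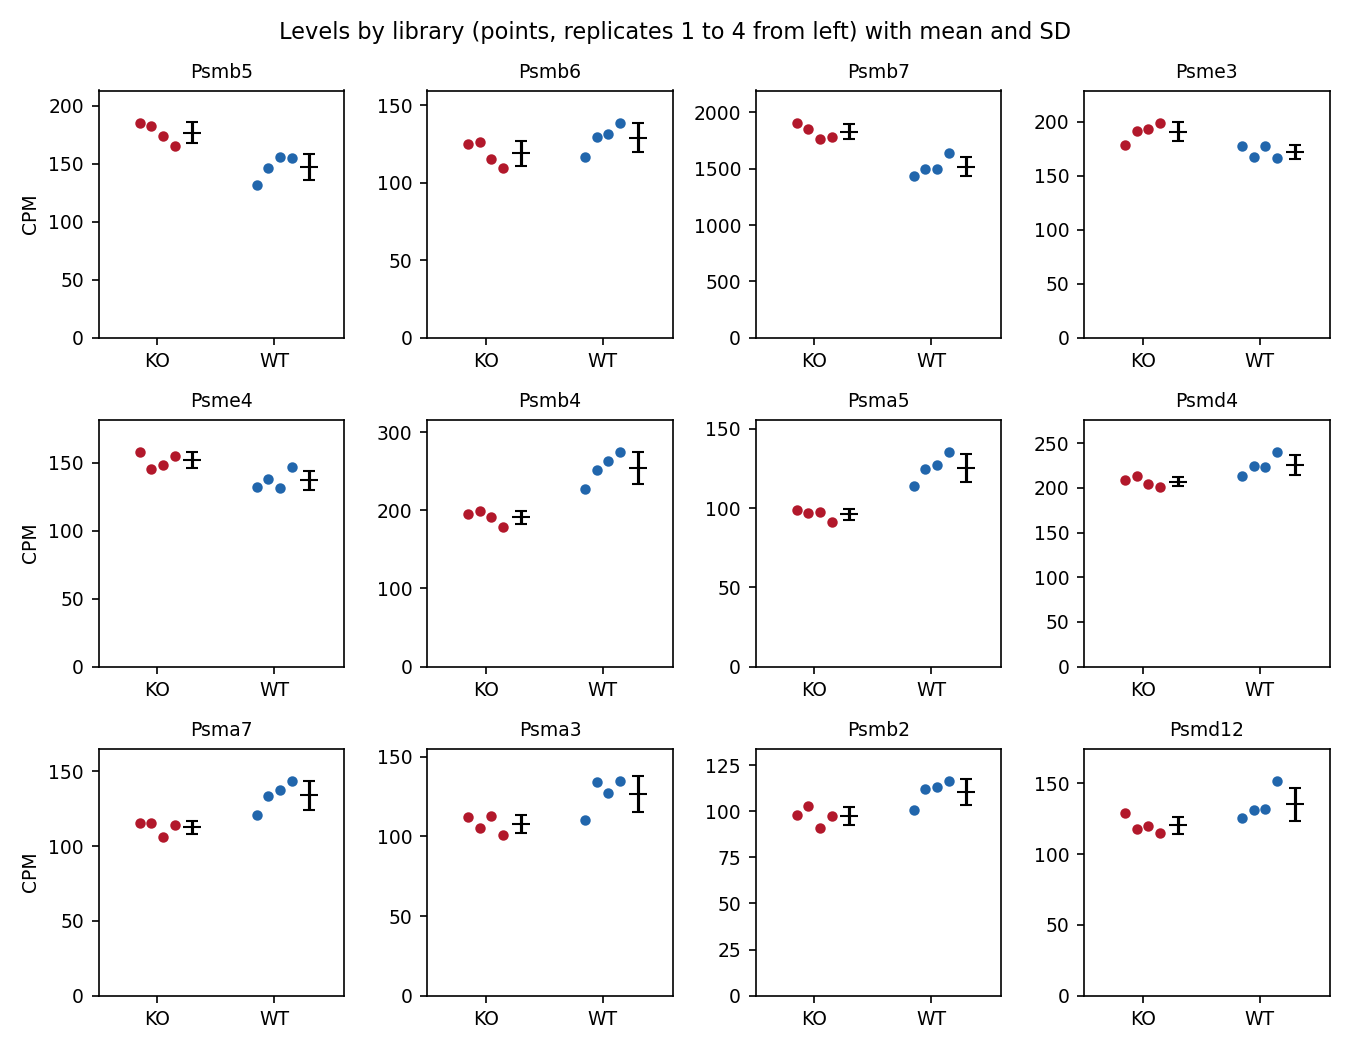
CPM (y axis, from 0) of 12 members in the 4 KO libraries (red, left) and the 4 WT libraries (blue, right), with mean and SD in black: the 3 catalytic subunits, both called activators, the 3 genes on chromosome 3 and 4 further genes called lower. KO points lie wholly above WT points for Psmb5, Psmb7 and Psme3, wholly below them for Psmb4, Psma5 and Psma7, and the ranges overlap for the other 6.

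Psmb7 stood apart in level as well. Per kilobase of its exons it averaged 534 CPM in KO and 443 CPM in WT, whereas Psmb5, next in order, averaged 197 CPM per kilobase in KO and 164 in WT, and Psmd2 144 in KO and 152 in WT. The remaining tested members had at most 111 CPM per kilobase in KO and 130.1 in WT, and the lowest was Psmg3 with 4.94 in KO and 4.67 in WT. Psmb7 took 24.4% to 25.2% of all counts on members in KO libraries and 20.6% to 21.4% in WT libraries. Summed over all 47 genes, members had 7345 ± 214 CPM in KO and 7238 ± 349.6 CPM in WT (SD, n = 4 each), with overlapping libraries. Without Psmb7 the sums were 5518 ± 157 CPM in KO and 5721 ± 268 CPM in WT, so the order of the group means turned round. The libraries overlapped here too, at 5313 to 5653 CPM in KO and 5375 to 6021 CPM in WT.

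Some genes around Psmb7 were higher in KO too. Of the 16 other tested genes within 500000 bases of it, 8 were higher in KO, beside 21.7% of all tested genes. The other 8 were not called, and 0 were lower (0 at an unadjusted p below 0.05, with DESeq2 and with limma as well). The median log2 fold change of the 16 genes was 0.25. They included Golga1 at 0.51, Nek6 at 0.46, Arpc5l at 0.44 and Nr6a1 at 0.42, while Nr5a1, which encodes steroidogenic factor 1 and lies between Psmb7 and Nr6a1, was at 0.01 and was not called. Nek6 overlaps Psmb7 on the opposite strand, and no source states whether reads were counted by strand, so reads of the shared stretch could not be assigned with certainty; Nek6 had 38205 counts over the 8 libraries and Psmb7 had 217128. For comparison, the 26 tested neighbours of Psmb5 within the same distance had 8 higher, 4 lower and a median of 0.12. The part of the neighbourhood in the difference of Psmb7 was not tested.

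**Figure D4:**
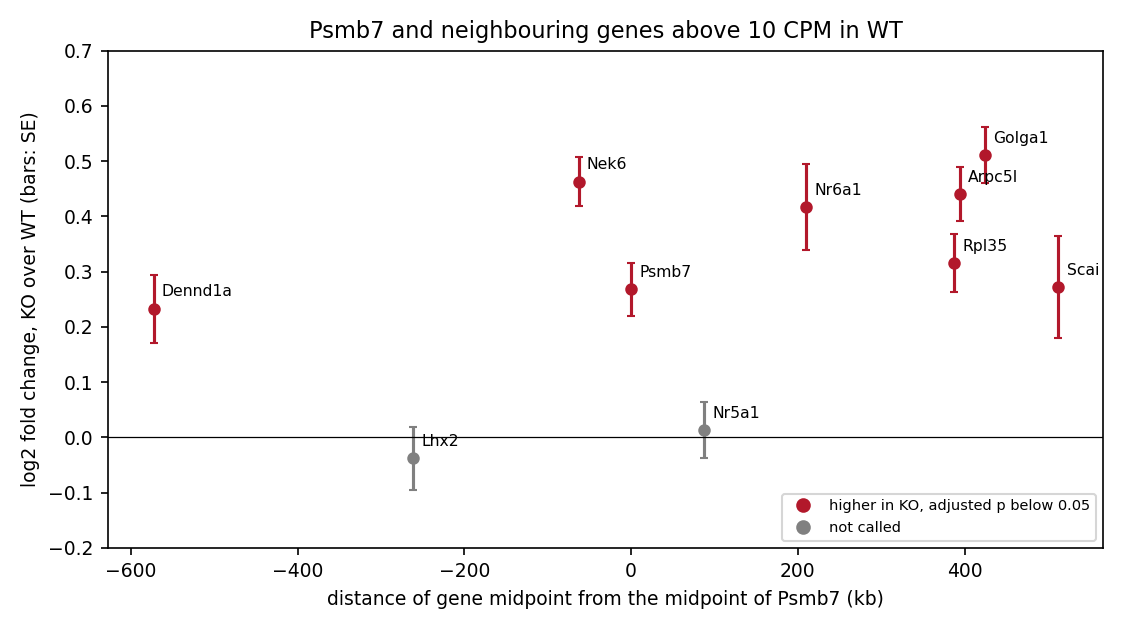
Log2 fold change of KO over WT with its SE (y axis) for Psmb7 and the tested neighbours above 10 CPM in WT, by distance between gene midpoints in kilobases (x axis); red marks genes called higher in KO. Psmb7 at 0.27 stands among Dennd1a at 0.23, Nek6 at 0.46 and Nr6a1 at 0.42, with Lhx2 and Nr5a1 near 0.

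Promoters of the catalytic genes were read to see which of them carry the antioxidant response element, the site of NFE2L1 and NFE2L2. RefSeq promoters (GRCm38.p6) were matched by symbol for 39 of the 47 members, with 42 start sites. In the 250 bases before each start, 4 motifs were searched on both strands: TGACNNNGC (antioxidant response element), CCAAT, TGACGTCA (cAMP response element) and CCGGAAG (ETS factor site). Psmb5 and Psmb6, of which the first was higher in KO and the second was not called, each hold 1 antioxidant response element, given in capitals; Psmb7 is not in the promoter table. The Psmb5 match starts 47 bases and the Psmb6 match 9 bases before the start site. The windows are chr14:54617996-54618245 on the minus strand for Psmb5 and chr11:70525107-70525356 on the plus strand for Psmb6.
Psmb5: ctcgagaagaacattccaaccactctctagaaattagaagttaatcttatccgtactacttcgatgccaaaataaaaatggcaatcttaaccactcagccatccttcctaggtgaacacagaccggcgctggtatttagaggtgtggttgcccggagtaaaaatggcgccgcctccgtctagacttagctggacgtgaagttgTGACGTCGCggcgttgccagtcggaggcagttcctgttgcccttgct
Psmb6: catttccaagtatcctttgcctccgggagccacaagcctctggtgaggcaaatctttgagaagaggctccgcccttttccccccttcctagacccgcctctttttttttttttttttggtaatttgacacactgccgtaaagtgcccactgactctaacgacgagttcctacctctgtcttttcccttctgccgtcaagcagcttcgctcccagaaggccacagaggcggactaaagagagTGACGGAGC

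Over all members the element was present in 5 of 42 promoters (11.9%), those of Psmd9, Psmb6, Psmd12, Psmc6 and Psmb5, against 10.2% of all 32851 promoters and 11.8% of the 12171 promoters of tested genes. Of these 5 genes, Psmb5 was higher, Psmd12 was lower and 3 were not called. CCAAT was in 14 member promoters (33.3%, against 33.8% of all promoters and 35.8% of those of tested genes), and TGACGTCA was in 0 of the 42, against 1.55% of all promoters. CCGGAAG was in 14 (33.3%, against 6.91% of all promoters and 13.9% of those of tested genes). By role it was in 8 of 14 matched 19S subunit genes (Psmc1, Psmc2, Psmc6, Psmd2, Psmd4, Psmd6, Psmd11 and Psmd12) and in 1 of 11 matched genes of the 20S rings (Psma6). Of those 19S genes only Psmd12 was called. These matches are descriptions of letters and not of bound sites.

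The remaining beta ring subunits were lower or not called. Psmb4, a structural beta subunit (ENSMUSG00000005779, chr3:94884093-94886961, minus strand), had 195, 199, 191 and 179 CPM in KO, against 227, 251, 262 and 275 CPM in WT. It had the largest absolute fold change of the 45 members, at -0.41 (SE 0.0583, interval -0.54 to -0.29, edgeR adjusted p = 3.14e-05), and the groups did not overlap. Psmb2, another structural beta subunit (ENSMUSG00000028837, chr4:126677630-126709714, plus strand), had 98.2, 103, 90.8 and 97.5 CPM in KO, against 100.4, 112, 113 and 117 CPM in WT. One KO library exceeded the lowest WT library here, and the log2 fold change was -0.19 (SE 0.0570, edgeR adjusted p = 0.0154), a call lost without KO replicate 3, where the value was -0.15. Psmb1 at -0.01 and Psmb3 at -0.07 were not called. The beta ring thus had 2 of 7 genes higher and 2 of 7 lower. Its share called was 57.1%, beside 42.7% of all tested genes and 49.9% of those at least as abundant as the lowest tested member.

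The alpha ring, whose tails form the gate of the core, had 3 of 7 genes lower and 0 higher in KO (0 higher at an unadjusted p below 0.05, with DESeq2 and with limma too), a share called of 42.9% that stood beside 42.7% of all tested genes. Psma5 (ENSMUSG00000068749, chr3:108256926-108279974, plus strand) had 98.6, 97.002, 97.4 and 91.0 CPM in KO, against 114, 125, 127 and 135 CPM in WT. All KO libraries were below all WT libraries, with a log2 fold change of -0.38 (SE 0.0565, interval -0.50 to -0.26, edgeR adjusted p = 4.81e-05). Psma7 (ENSMUSG00000027566, chr2:180036374-180042433, minus strand) had 115, 115, 106 and 114 CPM in KO, against 121, 134, 137 and 144 CPM in WT. Its groups were apart too, at -0.25 (SE 0.0570, interval -0.37 to -0.13, edgeR adjusted p = 0.00209), and the call was kept in all 18 alternatives. Psma3 (ENSMUSG00000060073, chr12:70974621-70996347, plus strand) had 112, 105, 112 and 101 CPM in KO, against 110.3, 134, 127 and 135 CPM in WT. WT replicate 1 fell among the KO values, and the difference was -0.23 (SE 0.0644, edgeR adjusted p = 0.00824). Psma1, Psma2, Psma4 and Psma6 lay between -0.11 and 0.03 and were not called. The ring's summed level was 820.3, 802, 804 and 775 CPM in KO, against 794, 883, 891 and 941 CPM in WT, and WT replicate 1 again lay among the KO libraries.

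Both members with the lowest fold changes are on chromosome 3, where genes in general were lower in KO: the median over its 631 tested genes was -0.22. Within 500000 bases of Psmb4, 16 of 30 tested neighbours were lower and 3 higher, with a median of -0.22. Around Psma5, 12 of 25 were lower and 1 higher, with a median of -0.32. Over all tested genes, 21.1% were called lower in KO and 21.7% higher. Psmb4 and Psma5 thus lay among neighbours that were often lower. The third member on chromosome 3, Psmd4, is a ubiquitin receptor of the 19S base (ENSMUSG00000005625, chr3:95032694-95042614, minus strand). It had 209, 213, 205 and 201 CPM in KO, against 213, 224, 223 and 240.3 CPM in WT. These ranges touched, and -0.12 was just outside the call (edgeR adjusted p = 0.0523), whereas DESeq2 and limma called it lower. When each KO value was shifted by the median of its chromosome, Psmb4 was at -0.19 and Psma5 at -0.16, both still called lower, and Psmd4 was at 0.10, not called and opposite in sign. In that fit 4 members were higher and 4 lower, and 38.8% of all tested genes were called in either direction. Psma3, Psmc5 and Psmd12 were not called there. The 42 tested members off chromosome 3 had 4 higher, 5 lower and a median of -0.01; chromosome 19, whose median was 0.51, holds no member.

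Of the 6 ATPases of the 19S base, which unfold substrates, only Psmc5 was lower and 0 were higher. The number higher was also 0 at an unadjusted p below 0.05, with DESeq2 and with limma. The share called was 16.7%, beside 42.7% of all tested genes and 49.9% of those at least as abundant as the lowest tested member. Psmc5 (ENSMUSG00000020708, chr11:106256154-106263120, plus strand) had 162, 157, 151 and 147 CPM in KO, against 161, 164, 173 and 177 CPM in WT. One KO library lay above the lowest WT library, and the log2 fold change was -0.13 (SE 0.0502, edgeR adjusted p = 0.0449). It was called in 7 of 18 alternatives and lost without WT replicate 2, 3 or 4 and without KO replicate 2, 3 or 4. The call was also lost with the replicate number as a block and after the shift by chromosome median. It was lost as well in the fits with the loosest count filter, without chromosomes 3 and 19, and with Psme2 and Psme2b summed. The other ATPases ranged from -0.14 (Psmc1) to 0.13 (Psmc6). Psmd1 at 0.00 and Psmd2 at -0.08, the large scaffold subunits of the base, were not called.

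In the lid, which holds the deubiquitinase Psmd14, 1 of 8 genes was lower and 0 were higher. The number higher was 1 at an unadjusted p below 0.05 (Psmd6) and 0 with DESeq2 and with limma. The share called was 12.5%, beside 42.7% of all tested genes and 49.9% of those at least as abundant as the lowest tested member. Psmd12, a structural lid subunit (ENSMUSG00000020720, chr11:107479484-107504362, plus strand), had 129, 118, 119.5 and 115 CPM in KO, against 125, 131, 132 and 152 CPM in WT. KO replicate 1 lay above WT replicate 1, and the log2 fold change of -0.17 (SE 0.0613, edgeR adjusted p = 0.0397) was called in 10 of 18 alternatives. It lost its call without WT replicate 2, 3 or 4 and without KO replicate 2, 3 or 4. The call was also lost with the replicate number as a block and after the shift by chromosome median. Psmd14 itself was at 0.02, and the other lid genes lay between -0.08 (Psmd8) and 0.12 (Psmd6).

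Of the 7 assembly factors 0 were called in either direction, also with DESeq2 and with limma. Over all tested genes 42.7% were called, and 49.9% of those at least as abundant as the lowest tested member. At an unadjusted p below 0.05 Psmg4 was higher and Psmg1 and Psmd5 were lower. The core chaperones Psmg1 to Psmg4 lay between -0.18 (Psmg1) and 0.20 (Psmg4), and the base chaperones Psmd5, Psmd9 and Psmd10 were at -0.12, 0.10 and 0.18. The intervals of Psmg1 (-0.35 to -0.01), Psmg4 (0.02 to 0.38) and Psmd5 (-0.23 to -0.01) left out 0 without passing the adjusted threshold (edgeR adjusted p = 0.0797 for Psmg1, 0.0732 for Psmg4 and 0.0642 for Psmd5). In the 18 alternatives Psmg4 was called higher in 4, Psmd5 lower in 4 and Psmg1 lower in 1. Psmf1, an inhibitor of the core, was at -0.13 and was not called.

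Of the 4 activators, 2 were higher in KO and 0 were lower (0 at an unadjusted p below 0.05, with DESeq2 and with limma). The share called was 50.0%, beside 42.7% of all tested genes and 49.9% of those at least as abundant as the lowest tested member. Psme3, the nuclear activator PA28 gamma (ENSMUSG00000078652, chr11:101316213-101323537, plus strand), had 179, 192, 194 and 199 CPM in KO, against 178, 167, 178 and 167 CPM in WT. The lowest KO library was just above the highest WT library, with a log2 fold change of 0.15 (SE 0.0491, interval 0.04 to 0.25, edgeR adjusted p = 0.0225). Psme4, the large single-chain activator known for its part in histone degradation (ENSMUSG00000040850, chr11:30771726-30880361, plus strand), had 158, 145, 148 and 155 CPM in KO, against 132, 138, 131 and 147 CPM in WT. One WT library reached into the KO range, and the log2 fold change was 0.15 (SE 0.0515, interval 0.04 to 0.26, edgeR adjusted p = 0.0304). The call on Psme3 was kept in 14 of 18 alternatives and lost without WT replicate 2, KO replicate 3 or KO replicate 4. That on Psme4 was kept in 12 and lost without WT replicate 1, 2 or 3 and without KO replicate 1 or 4. Psme3 and Psme4 also lost their calls with the replicate number as a block. Their promoters are shown because both genes were called higher; each holds 1 CCGGAAG (in capitals), 107 bases before the start site in Psme3 and 53 bases before it in Psme4, but the same motif is in the promoter of Psmd12, which was lower, and of Psmd11, which was not called. In Psme3 the capitals also mark ATTGG, the reverse complement of CCAAT. The windows are chr11:101315963-101316212 and chr11:30771525-30771774, both on the plus strand.
Psme3: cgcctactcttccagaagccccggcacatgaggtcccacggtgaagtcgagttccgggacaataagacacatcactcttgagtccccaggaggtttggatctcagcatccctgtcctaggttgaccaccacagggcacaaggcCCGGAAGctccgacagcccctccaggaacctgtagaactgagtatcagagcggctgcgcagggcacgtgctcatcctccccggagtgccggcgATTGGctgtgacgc
Psme4: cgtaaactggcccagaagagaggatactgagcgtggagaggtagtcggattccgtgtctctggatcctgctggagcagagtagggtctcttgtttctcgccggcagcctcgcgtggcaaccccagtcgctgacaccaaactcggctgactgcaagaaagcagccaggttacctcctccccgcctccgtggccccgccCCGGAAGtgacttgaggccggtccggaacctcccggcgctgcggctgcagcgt

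Psme1 and Psme2 encode the alpha and beta subunits of the interferon-inducible activator. Psme1 (chr14:55578123-55581529, plus strand) had 105, 111, 99.3 and 95.2 CPM in KO, against 94.96, 104, 113 and 117 CPM in WT, and at -0.06 was not called. Psme2 (chr14:55587441-55591113, minus strand) had 74.1, 43.5, 53.7 and 47.0 CPM in KO, against 43.3, 53.2, 45.7 and 48.8 CPM in WT. KO replicate 1 was far above the other 7 libraries. The copy Psme2b (chr11:48945354-48946190, minus strand) had 34.2, 57.3, 41.2 and 43.5 CPM in KO, against 43.7, 49.5, 53.9 and 50.0 CPM in WT, and was lowest in the library where Psme2 was highest. Psme2 took 68.4% of the counts of the pair in KO replicate 1, 43.2% to 56.6% in the other KO libraries and 45.9% to 51.8% in WT. Summed, the pair had 98.7 ± 7.71 CPM in KO and 97.04 ± 6.85 CPM in WT (SD, n = 4 each), a log2 fold change of 0.03 (interval -0.11 to 0.17, edgeR adjusted p = 0.762). The separate values of 0.20 for Psme2 and -0.17 for Psme2b are therefore uncertain, and neither was called.

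**Figure D5:**
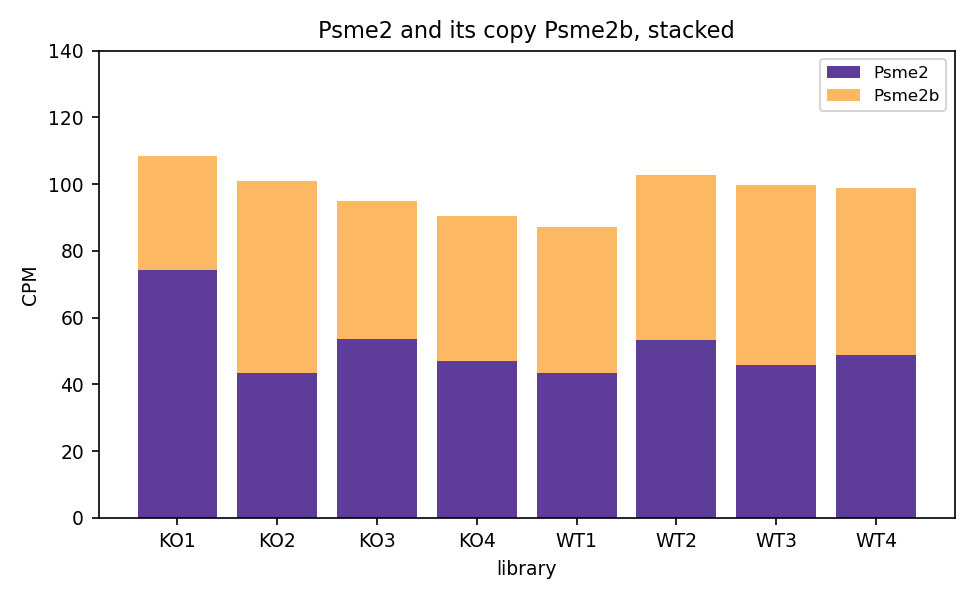
CPM (y axis) of Psme2 (purple) and its copy Psme2b (orange), stacked, in the 4 KO and 4 WT libraries (x axis). The sum lies between 90.5 and 108 CPM in KO and between 87.1 and 103 CPM in WT, while the split within KO1 departs from the other libraries.

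Tissue-specific core subunits were at the limit of detection. Psma8, the alpha subunit of the spermatogenic proteasome, had 4, 11, 6 and 1 counts in KO, against 5, 9, 4 and 8 counts in WT, and Psmb11, the thymus-specific beta subunit, had 0 counts in all 4 KO libraries, against 0, 5, 1 and 0 counts in WT. Neither passed the count filter, and neither was called in the fit without that filter, so a difference was not detectable at this depth. Psmc3ip, taken by its symbol only, averaged 13.9 ± 1.55 CPM in KO and 14.7 ± 2.12 CPM in WT (SD, n = 4 each), and shares part of its locus with Mlx on the opposite strand.

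Among omissions of a single library, that of WT replicate 1 gave the most lower calls: 3 members were then higher and 13 lower in KO, while 20.9% of all tested genes were called lower and 20.9% higher. The added lower calls were Psma4, Psmb6, Psmc1, Psmd4, Psmd5 and Psmg1, and Psme4 was not called. Without WT replicate 4, 6 were higher and 6 lower, beside 21.6% of all tested genes higher and 20.5% lower, with a member median of 0.03, against -0.06 without WT replicate 1. Without KO replicate 4, 5 were higher and 5 lower, beside 19.9% of all tested genes higher and 19.1% lower. Of the 11 calls, 5 (Psmb4, Psma5, Psma7, Psmb5 and Psmb7) were kept in every alternative in which the gene was tested.

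Genes outside the symbol rule were compared in the same fit. The inducible catalytic subunits of the immunoproteasome were scarce per kilobase: Psmb8 averaged 4.77 CPM per kilobase in KO and 5.94 in WT, against 197 in KO and 164 in WT for its constitutive counterpart Psmb5. Psmb8 had 12.9, 13.6, 13.01 and 12.7 CPM in KO, against 14.3, 15.8, 18.9 and 16.0 CPM in WT, all KO libraries lower, with a log2 fold change of -0.32 (edgeR adjusted p = 0.0132). Psmb9 at -0.18 and Psmb10 at 0.19 were not called. Of 6 tested interferon response genes, 4 were lower and 0 higher (0 at an unadjusted p below 0.05, with DESeq2 and with limma). The lower ones included Isg15, a ubiquitin-like modifier, at -0.78 and Irf1 at -0.36. Over all tested genes, 21.1% were called lower in KO and 21.7% higher.

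Components with other names included 1 higher and 3 lower of 9 tested: Ube3c, a ubiquitin ligase on the proteasome, at 0.27, Txnl1, a redox protein of the cap, at -0.26, Ecpas, a scaffold, at -0.23, and Sem1, a small lid subunit, at -0.18, which was at -0.08 and not called after chromosome centring. Of 10 regulators of the proteasome or of its genes, 4 were higher and 3 lower. The share called was 70.0% of these regulators and 44.4% of the components with other names. Over all tested genes it was 42.7%, and 49.9% among those at least as abundant as the lowest tested member. The largest changes among the regulators were those of Zfand5, a 26S activator on chromosome 19, at 0.59, and the small Maf proteins Mafk at -0.49 and Maff at -0.46. After chromosome centring Zfand5 was at 0.07 and not called. Nfe2l1 averaged 464 ± 3.80 CPM in KO and 412 ± 26.2 CPM in WT (SD, n = 4 each), a log2 fold change of 0.17 (edgeR adjusted p = 0.00947). Nfe2l2 averaged 329 ± 8.33 CPM in KO and 351 ± 11.4 CPM in WT and was not called at -0.09 (edgeR adjusted p = 0.103). Of 8 other known NFE2L2 targets, 7 were lower and 1, Osgin1 at 0.27, was higher, and the lower ones were led by Nqo1 at -0.87, Slc7a11 on chromosome 3 at -0.67 and Srxn1 at -0.45. All 7 had KO libraries wholly below WT, a pattern held by 18.9% of all tested genes. Of all tested genes, 21.1% were called lower. After chromosome centring Slc7a11 was at -0.45 and Gclm, also on chromosome 3, at -0.15, both still called lower.

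In the steps before the proteasome, calls went both ways. Among substrate shuttles, Ubqln2 at -0.34 and Ubqln4 on chromosome 3 at -0.17 were lower, and Ubqln4 was at 0.05 and not called after chromosome centring. Of 9 genes of the p97 segregase and its partners, 3 were higher and 2 lower. This was a share called of 55.6%, beside 42.7% of all tested genes and 49.9% of those at least as abundant as the lowest tested member. The largest p97 changes were Nsfl1c at -0.22, Syvn1 on chromosome 19 at 0.19 and Ufd1 at 0.18. After chromosome centring Syvn1 was at -0.32 and called lower. Among ubiquitin and ubiquitin-activating genes, Uba1 at 0.19 was higher and Ubb at -0.26 was lower. Rps27a had 171, 134, 305 and 129 CPM in KO, against 349.7, 383, 306 and 152 CPM in WT, with widely overlapping libraries, and its value of -0.69 was called by edgeR but not by DESeq2 nor after chromosome centring. Ubiquitin genes have near-identical copies, so their counts are uncertain.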

How the data were processed

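Gene counts of 8 libraries (4 KO, 4 WT) were analysed. Per the labels, poly(A) RNA was sequenced; the submitters' processing notes name HISAT2 2.0.5 and featureCounts 1.5.0-p3, and the count values were deposited by the authors as whole, unnormalized reads per gene. The builds GRCh37, hg19 and mm39 are listed with no role, but gene positions in the table overlapped RefSeq GRCm38.p6 for 99.83% of 37795 shared symbols. The genotype label reads wild type in all libraries, so groups were taken from titles.

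Genes were kept with filterByExpr (13185 of 54532) and tested with edgeR 4.0.16 (TMM, glmQLFit, glmQLFTest; R 4.3.3) in all 8 libraries with genotype as the only term, and p-values were adjusted over all tested genes (Benjamini-Hochberg, threshold 0.05). Standard errors came from the F statistic. The script was tested on simulated data. DESeq2 1.42.0, limma 3.58.1, other scalings and filters, the replicate block, chromosome centring and omission of each library were alternatives; summing Psme2 and Psme2b was added after the data were seen. No 2 libraries of a group agreed within sampling noise (chi-square per degree of freedom 3.39 to 14.9 over tested genes). Counting error is small at this depth, and the biological coefficient of variation was 7.11%. Members and gene lists were chosen with earlier results of these data known. Per-library values were given for called members, catalytic subunits, members on chromosome 3 or 19, Psme1, Psme2 and members with too few counts; Psmd2, Psmd11 and Psme2b were added after their values were seen. In related lists up to 3 called genes with the largest change were named, with Nfe2l1, Nfe2l2 and the immunoproteasome genes. Some genes of these lists are not reported here. Paaf1, in the list of components with other names, matched no symbol. Figures were drawn with matplotlib.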

Additional observations from a re-analysis of the deposited data

Results flagged for a closer look

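Among 90 sets of 4 libraries (45 members in 2 groups), 4 held a library set apart from the other 3 by a gap above Dixon's 95% critical value, where chance gives about 1 in 20. Psma7 had 106 CPM in KO replicate 3, against 114 to 115 CPM in the other KO libraries. Psmg1 had 44.4 CPM in KO replicate 4, against 47.9 to 48.2 CPM. Psmd6 had 76.4 CPM in WT replicate 1, against 82.7 to 83.0 CPM in the other WT libraries. Psmd8 had 139.8 CPM in WT replicate 4, against 129 to 129.7 CPM.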

How the results depend on the processing

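The counts of 4 members higher and 7 lower stayed within 1.5 times with DESeq2, with its size factors, without TMM, with either low-count filter, with limma and with the summing of Psme2 and Psme2b. With the replicate number as a block 2 were higher and 5 lower. The numbers do not pair the samples: deviations of same-numbered KO and WT libraries correlated at -0.152, 0.0402, 0.0407 and -0.147 for replicates 1 to 4, and not every library matched its own number best. Chromosome centring gave 4 lower and leaving out the genes of chromosomes 3 and 19 also 4, since Psmb4 and Psma5 were not in that fit and Psmc5 was not called. With an absolute log2 fold change above 0.5 there were 0 of each. Leaving out each library in turn gave 2 to 6 higher, 4 to 13 lower and a member median of -0.06 to 0.03; without WT replicate 2 there were 2 higher, and without KO replicate 3 there were 4 lower.

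Members near 0 changed sign without being called. Psma2 was at -0.0058 without TMM, -0.0058 with at least 10 counts in every library and -0.0028 after centring, Psmd1 at -0.0071 and -0.0073 in the first pair of settings, and Psmd13 at -0.0046, -0.0049 and -0.018. Centring also gave 0.039 for Psma6, 0.039 for Psmb1, 0.011 for Psmc3 and 0.10 for Psmd4. Over single omitted libraries the ranges that crossed 0 were -0.012 to 0.074 (Psma1), -0.039 to 0.032 (Psma2), -0.092 to 0.022 (Psma6), -0.063 to 0.037 (Psmb1), -0.062 to 0.026 (Psmc3), -0.14 to 0.027 (Psmc3ip), -0.027 to 0.035 (Psmd1), -0.020 to 0.053 (Psmd13), -0.0099 to 0.052 (Psmd14) and -0.0086 to 0.078 (Psmd3). The cause was not tested.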
